A study of Mus musculus with 34 samples.

Results

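The genes described here carry the transforming growth factor β (TGFβ) signal. They are the ligands Tgfb1, Tgfb2 and Tgfb3, the receptors Tgfbr1, Tgfbr2 and Tgfbr3, the signal transducer Smad3, the inhibitors Smad7 and Skil, and the target gene Tgfbi. They were chosen by name, and 9 of the 10 had a row among the 14107 genes of the count table. Tgfbr3, the co-receptor betaglycan, had no row.

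RNA was sequenced from NaJa-D, NaJa-F and NaJa-G, 3 mouse colorectal cancer cell lines that were treated with encorafenib, an inhibitor of the BRAF V600E kinase, or with the solvent DMSO. Each line was isolated by peritoneal lavage from a single C57BL/6N recipient of transplanted colon organoids, so a difference between lines is a difference between 3 isolates. All groups shared the genotype VillinCreERT2::BrafV600E/+::Trp53R172H::APCdel, in which a Cre enzyme driven by the Villin promoter of the gut epithelium was switched on in the organoids before transplantation. The 12 groups were NaJa-D, NaJa-F and NaJa-G, each in DMSO or 0.5 µM encorafenib, each for 1 day or 5 days, with fresh drug or solvent at day 0 and, in the longer treatment, also at days 2 and 4. There were 3 libraries per group, except for 2 in NaJa-F encorafenib day 5 and 2 in NaJa-G DMSO day 5. Nothing in the labels says that replicates came from separate cultures, so p-values measure the spread between these samples, which may be technical.

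Total counts per library ran from 46007050 to 80121299. In NaJa-D DMSO day 1, replicate 3 has NaJa-G as its cell line in the labels but NaJa-D in its title, which was followed here. Its lowest correlation with the other libraries of NaJa-D DMSO day 1 was 0.995, and its highest with NaJa-G DMSO day 1 was 0.920 (log2 CPM, counts scaled to library size with TMM factors). Of 10 intestinal epithelial markers 9 were in the table, with Cdx1 lacking a row, and their summed level ran from 2611 to 9106 CPM. In 5 of the 6 pairs of line and day, all but NaJa-G day 5, every encorafenib library was above every DMSO library in this sum. The high values came from Epcam, Cdh1 and the keratins Krt8, Krt18 and Krt19, whereas Vil1 reached 14.0 CPM and Cdx2 65.3 CPM at most. Among fibroblast markers Lum, Dpt and Thy1 had no row, and the sum of Pdgfrb, Col1a1, Col1a2 and Col3a1 stayed at or below 5.52 CPM in NaJa-D and NaJa-F but reached 118 CPM in NaJa-G. Of the mesothelial markers Wt1 had no row, Upk3b and Lrrn4 reached 6.40 and 3.65 CPM, and Msln ran from 496 to 3514 CPM. Their sum was higher in every encorafenib library than in any DMSO library of the same line and day. The macrophage and blood markers summed to 23.0 to 47.6 CPM, mostly Cd14, and Ptprc, Adgre1, Cd3e and Cd79a had no row. Pecam1 and Cdh5 had no row either, and the endothelial marker Kdr stayed at or below 1.36 CPM. The part of these markers in the results was not tested.

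TGFβ ligands are secreted in a latent complex and are set free at the cell surface or in the matrix. The free ligand binds the type II receptor TGFBR2, which activates the type I receptor TGFBR1, and TGFBR1 phosphorylates SMAD2 and SMAD3, which enter the nucleus with SMAD4. SMAD7 and SKIL, made in response to the signal in many cells, restrain it, and TGFBI is a matrix protein named for its induction by TGFβ. In the gut epithelium the pathway slows growth, and in carcinoma cells it can promote a mesenchymal, invasive state.

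Promoter sequences from RefSeq (GRCm38.p6) were held for 6 of the members, and the promoters of 4 are shown, because the results turn on these genes. They are Tgfb2, the ligand that limma called higher in all 6 comparisons of encorafenib with DMSO, and Tgfb1, the ligand called in none of them. The others are Tgfbr2, a receptor with its largest response in NaJa-G, and the target gene Tgfbi. Each runs 5′ to 3′ on the gene's strand, from 250 bases before the transcription start to 50 bases after it. Capitals mark the SMAD element CAGAC, the E-box CACGTG, the half-site TGACG of the cAMP response element and the TATA box TATAAA, on either strand; the AP-1 site TGANTCA was also searched and was in none of the 4.
Tgfb2: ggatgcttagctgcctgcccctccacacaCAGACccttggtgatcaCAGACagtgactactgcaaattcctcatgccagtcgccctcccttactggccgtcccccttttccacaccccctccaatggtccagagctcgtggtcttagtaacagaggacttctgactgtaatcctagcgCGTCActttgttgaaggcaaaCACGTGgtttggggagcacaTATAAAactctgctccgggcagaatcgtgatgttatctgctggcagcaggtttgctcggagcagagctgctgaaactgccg
Tgfb1: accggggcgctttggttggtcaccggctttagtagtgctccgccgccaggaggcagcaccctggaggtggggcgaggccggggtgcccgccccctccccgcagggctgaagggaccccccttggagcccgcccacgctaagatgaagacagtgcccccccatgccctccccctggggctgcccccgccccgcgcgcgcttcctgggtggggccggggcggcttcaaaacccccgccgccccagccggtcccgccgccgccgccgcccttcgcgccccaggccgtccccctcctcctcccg
Tgfbr2: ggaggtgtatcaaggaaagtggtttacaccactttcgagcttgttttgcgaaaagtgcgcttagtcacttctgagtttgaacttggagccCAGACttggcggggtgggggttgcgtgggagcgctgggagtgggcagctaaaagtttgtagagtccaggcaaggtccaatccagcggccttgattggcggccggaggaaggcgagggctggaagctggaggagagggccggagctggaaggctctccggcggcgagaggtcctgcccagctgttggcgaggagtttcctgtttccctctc
Tgfbi: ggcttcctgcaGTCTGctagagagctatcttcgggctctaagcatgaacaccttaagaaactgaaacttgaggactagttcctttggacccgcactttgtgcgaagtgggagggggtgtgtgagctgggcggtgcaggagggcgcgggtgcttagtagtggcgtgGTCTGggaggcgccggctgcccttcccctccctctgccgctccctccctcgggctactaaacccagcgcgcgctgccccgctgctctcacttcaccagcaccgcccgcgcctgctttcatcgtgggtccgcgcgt

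In GRCm38 with GENCODE M21 the genes lie at chr7:25687002-25705077 (Tgfb1), chr1:186622792-186705989 (Tgfb2), chr12:86056745-86079041 (Tgfb3), chr4:47353222-47414931 (Tgfbr1), chr9:116084293-116175360 (Tgfbr2), chr9:63646767-63757994 (Smad3), chr3:31095058-31122577 (Skil) and chr13:56609523-56639562 (Tgfbi). Smad7 lies on chromosome 18. The promoter windows lie at chr1:186705940-186706239 on the minus strand (Tgfb2), chr7:25686752-25687051 on the plus strand (Tgfb1), chr9:116175314-116175613 on the minus strand (Tgfbr2) and chr13:56609336-56609635 on the plus strand (Tgfbi). The Tgfb2 window held 2 SMAD elements, an E-box at -51, a TGACG half-site at -72 and a TATA box at -31 from the start. The Tgfb1 window held none of the 5 motifs and was 77% G and C, against 54.3% in Tgfb2. The Tgfbr2 window held 1 SMAD element and the Tgfbi window 2. Among 32851 promoters of this length 49.6% held CAGAC, 7.15% CACGTG, 20.8% TGACG, 13.6% TATAAA and 7.81% TGANTCA, so a CAGAC match sets no promoter apart, and a match is not a measured site.

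**Figure D1:**
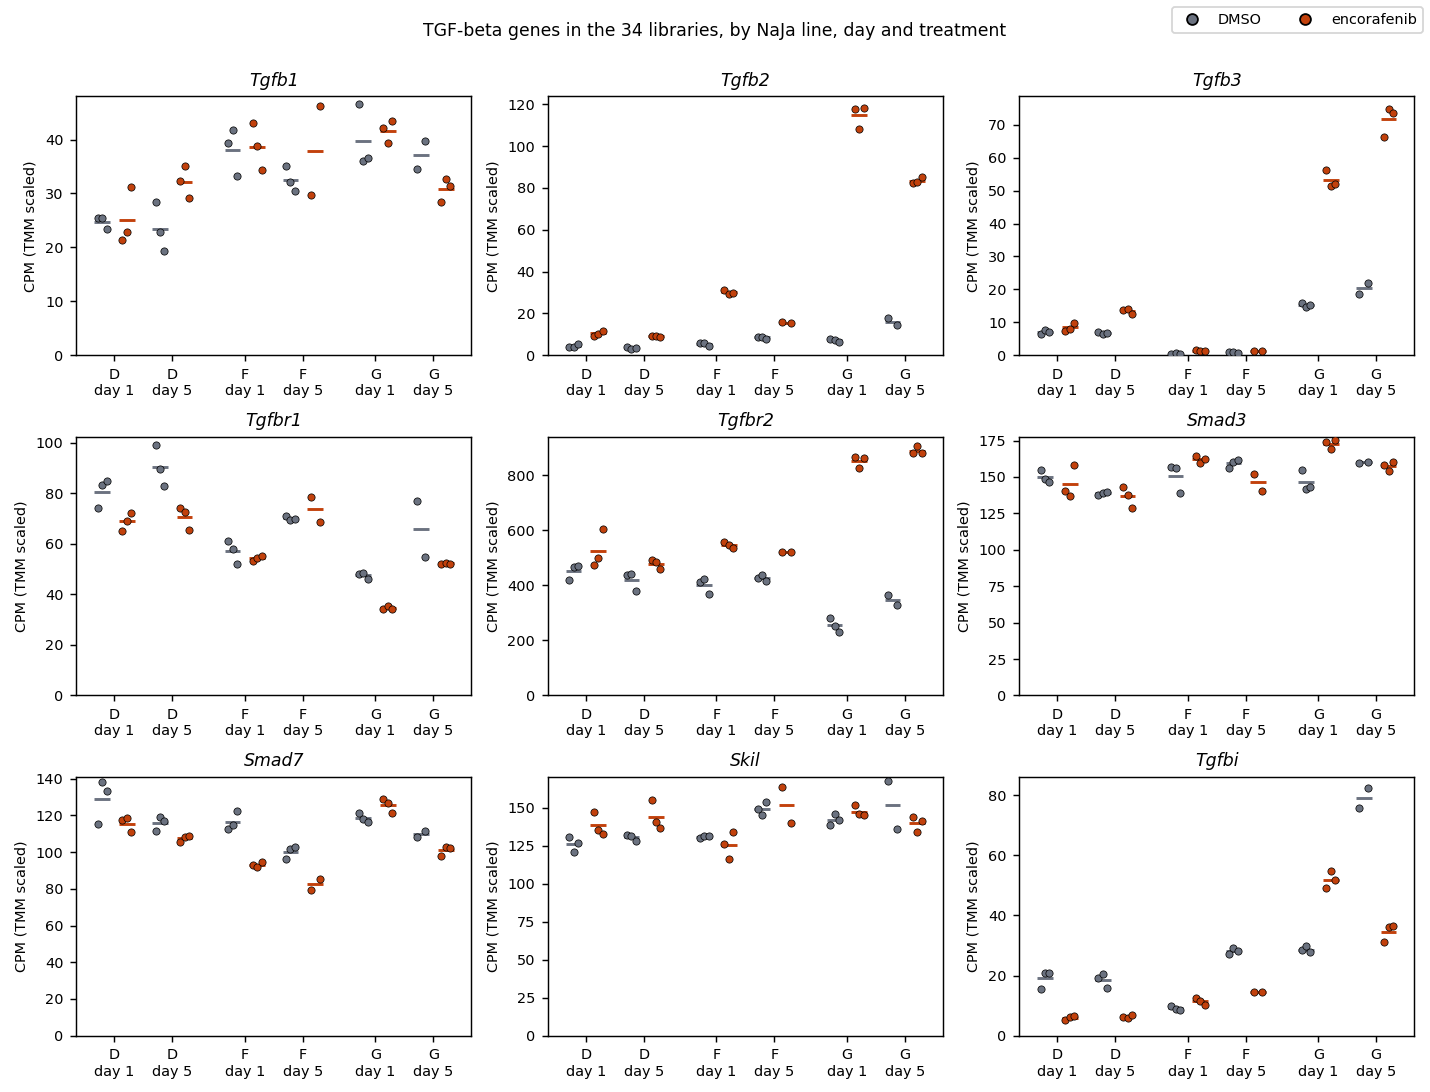
Level of each of the 9 measured genes (CPM with TMM scaling, linear axes from 0) in the 34 libraries, by line (D, F, G), day and treatment. Points are libraries and bars are group means. Tgfb2, Tgfb3 and Tgfbr2 stand highest in NaJa-G in encorafenib, Smad3 and Skil lie in a narrow band, and Tgfbi of NaJa-G lies above DMSO at day 1 and below it at day 5.

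Tgfb2, whose product binds TGFBR2 weakly without betaglycan, was the only member higher in encorafenib at an adjusted p below 0.01 (limma) in every line and at both days. Tgfb3 and Tgfbr2 also had positive log2 fold changes in all 6 comparisons, but passed this threshold in 4 and 3 of them. In NaJa-D at day 1 the Tgfb2 level was 3.75, 3.71 and 5.12 CPM in DMSO and 9.30, 10.4 and 11.6 CPM in encorafenib. After 5 days it was 3.80, 2.90 and 3.24 CPM in DMSO and 9.39, 9.14 and 8.66 CPM in encorafenib. Both times every treated NaJa-D library lay above every control. In NaJa-F the DMSO libraries held 5.66, 5.60 and 4.34 CPM at day 1 and the encorafenib libraries 31.0, 29.3 and 29.8 CPM. At day 5 the values were 8.61, 8.89 and 7.95 CPM in DMSO and 15.8 and 15.3 CPM in encorafenib, so the treated level was lower, and the control level higher, than at day 1. In NaJa-G the DMSO libraries held 7.77, 7.35 and 6.17 CPM at day 1 and the encorafenib libraries 118, 108 and 118 CPM. At day 5 they held 17.8 and 14.3 CPM in DMSO and 82.2, 82.6 and 85.4 CPM in encorafenib. The groups did not overlap in any of the 6 comparisons.

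The fitted log2 fold changes of Tgfb2 at day 1 were 1.32 ± 0.139 (SE) for NaJa-D, 2.55 ± 0.106 for NaJa-F and 4.01 ± 0.0922 for NaJa-G. At day 5 they were 1.44 ± 0.141, 0.88 ± 0.109 and 2.39 ± 0.0893. The NaJa-G response at day 1 was 16.1-fold. The largest adjusted p of the 6 was 3.53e-07, in NaJa-F at day 5 (limma with voom weights, two-sided, Benjamini-Hochberg adjustment over all 14107 genes, called below 0.01). Genes called higher in all 6 comparisons made up 5.08% of the table. The day 1 response was 2.69 ± 0.167 log2 units larger for NaJa-G than for NaJa-D (adjusted p = 4.26e-13 by limma) and 1.46 ± 0.140 larger than for NaJa-F (adjusted p = 1.93e-09), and NaJa-F exceeded NaJa-D by 1.23 ± 0.174 (adjusted p = 1.93e-05). At day 5 NaJa-G exceeded NaJa-D by 0.95 ± 0.167 and NaJa-F by 1.52 ± 0.141. Between day 1 and day 5 the response fell by 1.67 ± 0.152 log2 units in NaJa-F and by 1.61 ± 0.128 in NaJa-G, both called.

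In DMSO, Tgfb2 rose from day 1 to day 5 by 0.72 ± 0.120 log2 units in NaJa-F and by 1.15 ± 0.109 in NaJa-G. The order of Tgfb2 levels ran from NaJa-G encorafenib day 1 (115 ± 5.62 CPM, SD, n = 3) over NaJa-G encorafenib day 5 (83.4 ± 1.74) and NaJa-F encorafenib day 1 (30.1 ± 0.842) down to NaJa-D DMSO day 5 (3.31 ± 0.455). The 3 highest groups did not overlap with their neighbours in this order, whereas NaJa-G DMSO day 5 and NaJa-F encorafenib day 5 overlapped, as did the encorafenib groups of NaJa-D and, next to them, NaJa-F DMSO day 5. An antisense gene, Gm29491, covers 2.14% of the exon length of Tgfb2, and the use of strand in counting was not stated, so reads of that stretch cannot be told apart.

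Tgfb3, the third ligand, was called higher in NaJa-G at both days, in NaJa-D at day 5 and in NaJa-F at day 1. The NaJa-G libraries held 15.7, 14.7 and 15.3 CPM in DMSO and 56.1, 51.4 and 52.1 CPM in encorafenib at day 1. At day 5 they held 18.5 and 22.0 CPM in DMSO and 66.4, 74.9 and 73.6 CPM in encorafenib. Thus all treated NaJa-G libraries lay well above every NaJa-G control of either day. NaJa-D held 6.39, 7.79 and 7.03 CPM in DMSO and 7.50, 8.08 and 9.72 CPM in encorafenib at day 1, where the groups overlapped. At day 5 NaJa-D held 7.18, 6.53 and 6.74 CPM in DMSO and 13.7, 14.1 and 12.6 CPM in encorafenib, without overlap. NaJa-F had little Tgfb3 in any condition. Its libraries held 0.446, 0.609 and 0.448 CPM in DMSO against 1.61, 1.31 and 1.27 CPM in encorafenib at day 1, from 26 to 104 counts each. At day 5 they held 0.844, 0.858 and 0.720 CPM in DMSO and 1.16 and 1.19 CPM in encorafenib.

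The log2 fold changes of Tgfb3 were 1.80 ± 0.0686 and 1.82 ± 0.0747 in NaJa-G (adjusted p = 3.61e-19 and 5.19e-18 by limma), 0.98 ± 0.0962 in NaJa-D at day 5 and 1.47 ± 0.244 in NaJa-F at day 1, all called. Those of NaJa-D at day 1 (0.24, adjusted p = 0.0556 by limma) and NaJa-F at day 5 (0.54, adjusted p = 0.124) were not. The response of NaJa-D grew by 0.74 ± 0.144 log2 units from day 1 to day 5 (adjusted p = 8.54e-04 by limma), a call that was lost in a fit of only the NaJa-D libraries (adjusted p = 0.0105). NaJa-G exceeded NaJa-D by 1.56 ± 0.128 at day 1 and by 0.84 ± 0.122 at day 5, and exceeded NaJa-F by 1.28 ± 0.265 at day 5, whereas their day 1 difference was not called (adjusted p = 0.299 by limma). NaJa-F exceeded NaJa-D by 1.22 ± 0.267 at day 1 (adjusted p = 0.0021 by limma), a call that was lost without NaJa-F DMSO day 1 replicate 3 (1.15, adjusted p = 0.0146). Antisense genes cover 4.82% (Gm37804) and 7.6% (Gm48008) of the exon length of Tgfb3.

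Tgfb1, the most widely expressed ligand, lay between 19.3 and 46.6 CPM in all 34 libraries. In NaJa-D the DMSO libraries held 25.4, 25.5 and 23.3 CPM and the encorafenib libraries 21.4, 22.8 and 31.2 CPM at day 1, and the groups overlapped. At day 5 NaJa-D held 28.3, 22.8 and 19.3 CPM in DMSO and 32.3, 35 and 29.2 CPM in encorafenib, without overlap but short of the threshold (log2 fold change 0.47, 95% interval 0.15 to 0.78, adjusted p = 0.0141 by limma). Over the 6 comparisons its log2 fold change ran from -0.27 to 0.47. Tgfb1 was called in 0 of the 6 by limma and by edgeR and in 1 by DESeq2, and 1 of the 6 had an unadjusted p under 0.05. The 2 NaJa-F encorafenib day 5 libraries, at 29.6 and 46.3 CPM, differed widely, and without the second of them the log2 fold change there was -0.15 instead of 0.19. All 11 pairs of neighbouring groups in the order of Tgfb1 levels overlapped.

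Because the ligand genes differ in exon length, their make-up was compared as CPM per kilobase of exon. The length was that of all annotated exons of a gene merged, 5042 bases for Tgfb1, 5791 for Tgfb2 and 3383 for Tgfb3. Transcripts in use may be shorter, so the shares and the order of the ligands depend on this choice. In NaJa-G the summed ligand level was 13.6 ± 1.40 CPM per kilobase in DMSO and 43.8 ± 1.89 in encorafenib at day 1, and 16.1 ± 1.04 and 41.7 ± 1.93 at day 5. Tgfb1 made up 57.7% of that sum in DMSO (range over libraries 56.0% to 60.7%) and 18.9% in encorafenib (18.5% to 19.4%) at day 1. At day 5 the Tgfb1 share was 45.6% in DMSO and 14.7% in encorafenib. On this scale Tgfb2 was the largest share of treated NaJa-G at day 1, at 45.2%, and Tgfb3 at day 5, at 50.8%. In NaJa-F the Tgfb1 share was 87.9% in DMSO and 57.7% in encorafenib at day 1, with Tgfb2 at 10.4% and 39.2%. On day 5 it was 79.1% and 70.5%. In NaJa-D it was 63.5% and 53.5% at day 1 and 64.0% and 53.5% at day 5. By this measure Tgfb1 stayed the most abundant ligand transcript of NaJa-D and NaJa-F in each group.

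**Figure D2:**
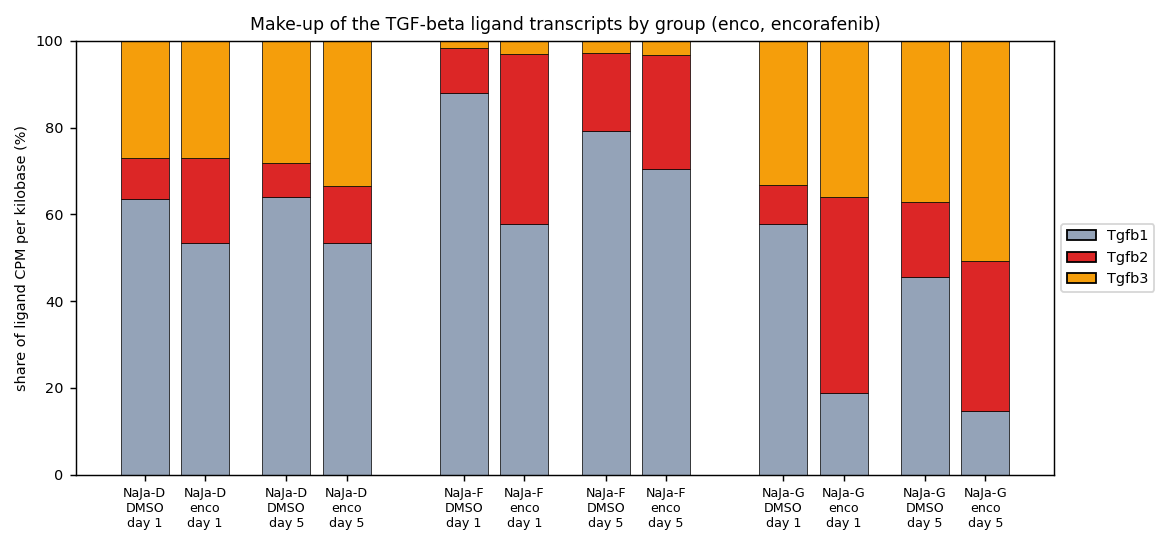
Share of Tgfb1, Tgfb2 and Tgfb3 in the summed CPM per kilobase of merged exons of the ligands (percent, mean of the libraries of a group) in the 12 groups. Tgfb1 holds 57.7% in NaJa-G DMSO day 1 and 18.9% in NaJa-G encorafenib day 1, and Tgfb3 stays at or below 3.35% in NaJa-F.

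Tgfbr2, the receptor that binds the ligand first, had its largest response to encorafenib in NaJa-G. NaJa-G held 282, 251 and 231 CPM in DMSO and 865, 828 and 862 CPM in encorafenib at day 1. At day 5 it held 364 and 330 CPM in DMSO and 880, 907 and 882 CPM in encorafenib. The untreated NaJa-G groups were the lowest of all 12 and the treated NaJa-G groups the highest, without overlap with their neighbours. NaJa-F held 412, 424 and 369 CPM in DMSO and 559, 548 and 538 CPM in encorafenib at day 1. At day 5 NaJa-F held 428, 438 and 415 CPM in DMSO and 520 and 523 CPM in encorafenib. NaJa-D ranged from 420 to 472 CPM in DMSO and from 475 to 606 CPM in encorafenib at day 1. At day 5 it ranged from 380 to 440 CPM and from 458 to 492 CPM, so the NaJa-D groups did not overlap at either day.

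The log2 fold changes of Tgfbr2 were 1.75 ± 0.0779 and 1.36 ± 0.0877 in NaJa-G (adjusted p = 1.20e-17 and 1.10e-13 by limma) and 0.45 ± 0.0778 in NaJa-F at day 1 (adjusted p = 2.98e-05). For NaJa-D they were 0.21 and 0.19 (adjusted p = 0.0193 and 0.0440 by limma), and for NaJa-F at day 5 the value was 0.29 (adjusted p = 0.0126), short of the threshold. Of the 6 comparisons limma and edgeR called Tgfbr2 in 3 and DESeq2 in 4. The NaJa-G response exceeded that of NaJa-D by 1.53 ± 0.109 at day 1 and 1.17 ± 0.117 at day 5, and that of NaJa-F by 1.3 ± 0.110 and 1.07 ± 0.123, all called. Day 5 minus day 1 was -0.39 ± 0.117 for NaJa-G (adjusted p = 0.00857 by limma), but this call was lost when any of 9 of the 11 NaJa-G libraries was left out, with values from -0.41 to -0.32. Those 9 were NaJa-G DMSO day 1 replicates 2 and 3, NaJa-G DMSO day 5 replicate 1 and all 6 encorafenib libraries.

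Tgfbr1, the kinase that passes the signal to the SMAD proteins, moved the other way or not detectably. NaJa-G held 48.0, 48.6 and 46 CPM in DMSO and 34.2, 35.4 and 34.1 CPM in encorafenib at day 1, a log2 fold change of -0.46 ± 0.0881 (adjusted p = 3.73e-05 by limma). At day 5 NaJa-G held 76.9 and 54.9 CPM in DMSO and 52.1, 52.4 and 52.2 CPM in encorafenib (-0.31 ± 0.0940, adjusted p = 0.00504 by limma). This day 5 call rested on NaJa-G DMSO day 5 replicate 1, the library at 76.9 CPM, without which the log2 fold change was -0.07 (adjusted p = 0.507). It was also lost, at -0.32 to -0.31, when any of the 3 encorafenib libraries was left out or only the groups compared were fitted. NaJa-D held 74.0, 83.2 and 84.7 CPM in DMSO and 65.3, 69.0 and 72.4 CPM in encorafenib at day 1 (-0.23, adjusted p = 0.0242 by limma). At day 5 NaJa-D held 99.2, 89.5 and 82.7 CPM in DMSO and 74.3, 72.6 and 65.5 CPM in encorafenib (-0.35 ± 0.0835, adjusted p = 0.00104 by limma), which missed the threshold without NaJa-D DMSO day 5 replicate 1 (-0.28) or NaJa-D encorafenib day 5 replicate 3 (-0.30). In NaJa-F the groups overlapped at both days, with log2 fold changes of -0.07 and 0.07. Per kilobase of merged exons Tgfbr2 exceeded Tgfbr1 4.27-fold in NaJa-G DMSO day 1 (4.01 to 4.70 over libraries) and 19.7-fold in NaJa-G encorafenib day 1 (18.7 to 20.2), and 4.28-fold and 13.6-fold at day 5. The size of this ratio depends on the exon lengths used. In NaJa-D this ratio was 4.44 to 4.53 in DMSO and 5.76 to 6.68 in encorafenib at day 1. At day 5 it was 3.52 to 3.93 and 5.29 to 5.58. In NaJa-F it was 5.39 to 5.83 in DMSO and 7.77 to 8.36 in encorafenib at day 1. At day 5 it was 4.73 to 5.02 and 5.28 to 6.06. The ratio was thus higher in encorafenib without overlap in these lines too.

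Smad3, Smad7 and Skil moved little. Smad3, the transducer, lay between 129 and 175 CPM in all libraries. In NaJa-G at day 1 it was 155, 142 and 143 CPM in DMSO and 174, 169 and 175 CPM in encorafenib, without overlap, and this was its only called response (0.24 ± 0.0526, adjusted p = 1.99e-04 by limma). The call was lost in a fit of only those 6 libraries (0.19, adjusted p = 0.0151). Its log2 fold changes in the other 5 comparisons ran from -0.12 to 0.11. Smad7, the inhibitory SMAD, was called by limma in NaJa-F, where it fell at both days. DESeq2 also called it lower in NaJa-D at day 1 (-0.17, adjusted p = 0.00351). NaJa-F held 113, 115 and 122 CPM in DMSO and 92.7, 91.8 and 94.4 CPM in encorafenib at day 1 (-0.33 ± 0.0519, adjusted p = 9.82e-06 by limma). At day 5 NaJa-F held 96.1, 102 and 103 CPM in DMSO and 79.4 and 85.3 CPM in encorafenib (-0.28 ± 0.0580, adjusted p = 4.22e-04 by limma), a call lost without NaJa-F encorafenib day 5 replicate 1 (-0.24, adjusted p = 0.0180). In NaJa-D and NaJa-G the log2 fold changes of Smad7 lay between -0.15 and 0.08. Skil, which encodes the repressor SnoN, lay between 116 and 168 CPM, and its log2 fold change ran from -0.11 to 0.14. It was called in 0 of the 6 comparisons by limma, edgeR and DESeq2, with an unadjusted p under 0.05 in 2. At day 1 the Smad7 response of NaJa-G exceeded that of NaJa-F by 0.41 ± 0.0736 log2 units (adjusted p = 4.18e-05 by limma). The responses of Smad7 in NaJa-F and NaJa-D at day 1 did not differ past the threshold (adjusted p = 0.0859 by limma).

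Tgfbi, the matrix protein, fell in NaJa-D and turned its direction with time in NaJa-G. NaJa-D held 15.6, 20.9 and 21.0 CPM in DMSO and 5.13, 6.27 and 6.54 CPM in encorafenib at day 1. After 5 days it held 19.1, 20.6 and 15.8 CPM in DMSO and 6.35, 6.03 and 6.98 CPM in encorafenib. Every treated NaJa-D library lay below every control. NaJa-F held 9.74, 8.80 and 8.63 CPM in DMSO and 12.6, 11.7 and 10.1 CPM in encorafenib at day 1. On day 5 it held 27.3, 29.1 and 28.1 CPM in DMSO and 14.6 and 14.6 CPM in encorafenib. The treated libraries of NaJa-F were thus above the controls at day 1 and below them at day 5. NaJa-G held 28.5, 29.7 and 27.7 CPM in DMSO and 49.0, 54.8 and 51.7 CPM in encorafenib at day 1. At day 5 it held 75.8 and 82.2 CPM in DMSO and 31.1, 36.2 and 36.6 CPM in encorafenib, so the control level was higher and the treated level lower than at day 1.

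For NaJa-D the log2 fold changes of Tgfbi were -1.68 ± 0.131 and -1.51 ± 0.124. Those of NaJa-F were 0.34 ± 0.117 and -0.95 ± 0.113, and those of NaJa-G 0.86 ± 0.0851 and -1.19 ± 0.0918. All but that of NaJa-F at day 1 (adjusted p = 0.0226 by limma) were called. Of the 6 comparisons limma and edgeR called Tgfbi in 5 and DESeq2 in 6. From day 1 to day 5 the response fell by 2.05 ± 0.125 log2 units in NaJa-G (adjusted p = 1.77e-13 by limma) and by 1.28 ± 0.162 in NaJa-F (adjusted p = 1.43e-06). At day 1 the response of NaJa-D was exceeded by that of NaJa-G by 2.53 ± 0.156 log2 units and by that of NaJa-F by 2.01 ± 0.175. In DMSO, Tgfbi rose with time by 1.64 ± 0.107 in NaJa-F and 1.46 ± 0.0929 in NaJa-G, both called, whereas the NaJa-D controls of both days overlapped.

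**Figure D3:**
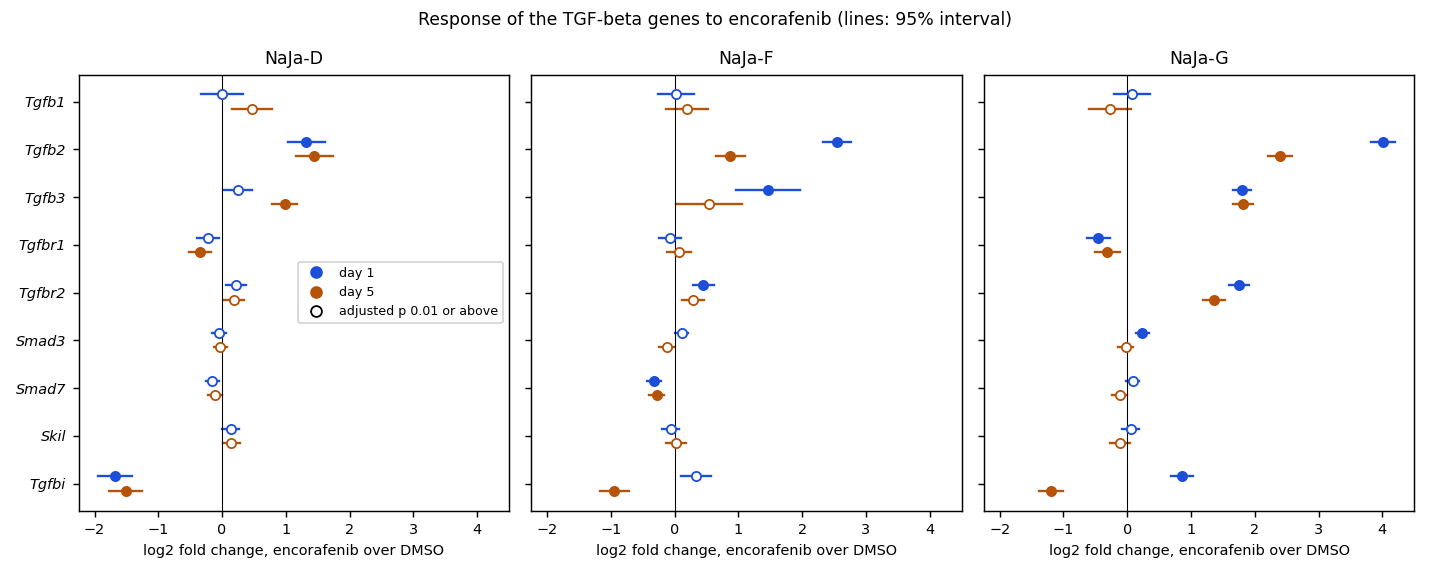
Log2 fold change, encorafenib over DMSO, of the 9 genes in each line at day 1 (blue) and day 5 (brown). Lines are 95% intervals, and filled points have an adjusted p below 0.01. Tgfb2 lies right of 0 in all 6 comparisons, and Tgfbi of NaJa-G lies right of 0 at day 1 (0.86) and left of it at day 5 (-1.19).

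Encorafenib changed many genes in these cells, so the count of members called is given beside the share of all genes called. In NaJa-D 2 of the 9 members were called at day 1 (Tgfb2 higher, Tgfbi lower), where 44.9% of all genes were. After 5 days it was 4 of 9, against 33% of all genes. In NaJa-F 4 were called at day 1, against 29.5%, and 3 at day 5, against 18.2%. In NaJa-G 6 were called at day 1, against 64%, and 5 at day 5, against 53.2%. The shares of members lay on both sides of those of all genes. The share of all genes depended on the fit. With only the groups compared, 3540 of 14107 genes were called in NaJa-D at day 1, against 6335 in the main fit. The median log2 fold change of the members ran from -0.11 to 0.24 over the 6 comparisons, and that of all genes from -0.02 to 0.04.

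The responses of NaJa-G and NaJa-D at day 1 differed for 6 of the 9 members, each in the direction of a higher response in NaJa-G, where 36.4% of all genes differed. These were Tgfb2, Tgfb3, Tgfbr2, Smad3, Smad7 and Tgfbi. NaJa-G and NaJa-F differed at day 1 for 4 members (33.5% of all genes), and NaJa-F and NaJa-D for 3 (8.79%). At day 5 NaJa-G differed from NaJa-D and from NaJa-F for Tgfb2, Tgfb3 and Tgfbr2, against 21.9% and 24.2% of all genes. NaJa-F and NaJa-D differed at day 5 for 0 members by limma and edgeR and for 1 by DESeq2, with 4 members at an unadjusted p under 0.05, against 8.85% of all genes. The response changed from day 1 to day 5 for 1 member in NaJa-D (7.29% of all genes), 2 in NaJa-F (5.88%) and 4 in NaJa-G (31.7%). Since each pair of lines and each pair of days shares samples with the next, these counts are not independent.

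Without the drug, members differed between lines in the mean of both days, in shares that lay on both sides of those of all genes. NaJa-F and NaJa-D differed for 5 of 9 members (61.6% of all genes), NaJa-G and NaJa-D for 7 (67.4%) and NaJa-G and NaJa-F for 4 (54.4%). Tgfb3 differed most in the comparisons with NaJa-F, where its counts were lowest. For NaJa-F minus NaJa-D its log2 difference in DMSO was -3.44 ± 0.145, and for NaJa-G minus NaJa-F it was 4.78 ± 0.140, a 27.5-fold difference. NaJa-G minus NaJa-D it was 1.34 ± 0.0698. Tgfb2 exceeded its NaJa-D level by 1.52 ± 0.0999 in NaJa-G and by 0.83 ± 0.103 in NaJa-F, and Tgfb1 did so by 0.68 ± 0.113 and 0.55 ± 0.108. The levels of both receptors were lower in NaJa-G than those of NaJa-D. The log2 difference, NaJa-G minus NaJa-D, was -0.55 ± 0.0567 for Tgfbr2 and -0.62 ± 0.0631 for Tgfbr1. Tgfbi of NaJa-G exceeded that of NaJa-D by 1.35 ± 0.0705 and that of NaJa-F by 1.58 ± 0.0710. Skil of NaJa-G exceeded that of NaJa-D by 0.19 ± 0.0491, short of the threshold without NaJa-G DMSO day 5 replicate 1 (0.12). For Smad7 the NaJa-F minus NaJa-D difference was -0.18 ± 0.0367, which was not called with scaling by library size alone (-0.05).

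Time in DMSO changed 4 members in NaJa-F (16.7% of all genes) and 5 in NaJa-G (34.1%). In NaJa-D it changed 0 by limma and edgeR and 1 by DESeq2, with 2 members at an unadjusted p under 0.05 (29% of all genes). Beside Tgfb2 and Tgfbi, Tgfbr1 rose by 0.30 ± 0.0840 in NaJa-F and 0.45 ± 0.0943 in NaJa-G. The NaJa-G value rested in part on NaJa-G DMSO day 5 replicate 1, without which it was 0.21 (adjusted p = 0.0886 by limma). The NaJa-F value missed the threshold when any library but NaJa-F DMSO day 1 replicate 1 was left out, at 0.24 to 0.32. In NaJa-G, Tgfbr2 rose by 0.45 ± 0.0845 and Tgfb3 by 0.41 ± 0.0817, the latter short of the threshold without NaJa-G DMSO day 5 replicate 3 (0.28). In a fit of only the NaJa-G DMSO libraries the calls of Tgfb3, Tgfbr1 and Tgfbr2 were lost (adjusted p = 0.0260, 0.0497 and 0.0156 by limma). In NaJa-F, Smad7 fell by 0.22 ± 0.0519 log2 units, short of the threshold without NaJa-F DMSO day 5 replicate 1 (-0.21) or NaJa-F DMSO day 1 replicate 3 (-0.18).

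Itgb6 and Thbs1, whose products can help to set some latent TGFβ ligands free, were called higher in all 6 comparisons, as were 5.08% of all genes. Of 11 genes for latent TGFβ binding and activation, 4 rose and 3 fell in NaJa-D at day 1, and 7 rose and 1 fell at day 5. In NaJa-F 3 rose and 2 fell at day 1, and 3 rose and 1 fell at day 5. In NaJa-G 7 rose and 3 fell at day 1, and 8 rose and 1 fell at day 5. The list medians at day 1 were 0.22 (NaJa-D), 0.04 (NaJa-F) and 0.34 (NaJa-G), and at day 5 0.60, 0.41 and 0.92, against medians of all genes between -0.02 and 0.04. Among all genes the share called higher was 23.7% (NaJa-D), 17.5% (NaJa-F) and 35.3% (NaJa-G) at day 1 and 18.3%, 9.7% and 28.5% at day 5. The share called lower was 21.2%, 12% and 28.7% at day 1 and 14.7%, 8.5% and 24.7% at day 5, so all genes too rose more often than they fell. Itgb6 encodes a subunit of an integrin that pulls TGFβ1 and TGFβ3 out of their latent complexes. Its log2 fold changes were 1.26 (NaJa-D), 0.81 (NaJa-F) and 1.86 (NaJa-G) at day 1 and 1.13, 0.70 and 1.53 at day 5. Thbs1, a matrix glycoprotein that can activate latent TGFβ, rose by 0.87 (NaJa-D), 0.82 (NaJa-F) and 2.66 (NaJa-G) at day 1 and by 0.61, 1.01 and 2.68 at day 5. Ltbp1, a latent TGFβ binding protein, fell by 0.60 log2 units in NaJa-G at day 1 and rose by 0.45 at day 5, and in DMSO its NaJa-G level exceeded that of NaJa-D by 3.00. Ltbp2, a relative of Ltbp1, fell in NaJa-D (-0.52 and -0.93) and in NaJa-F at day 1 (-0.41) and rose in NaJa-G at day 5 (1.21).

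Signal transducers and their regulators were less uniform. Of 14 in the table (Acvrl1 had no row), 1 to 5 rose in each comparison of NaJa-D and NaJa-F and in NaJa-G at day 5, and 10 rose and 2 fell in NaJa-G at day 1. No more than 3 fell in any comparison, and the list medians ran from 0.02 to 0.29. Of all genes 18.2% to 44.9% were called in NaJa-D and NaJa-F, 64% in NaJa-G at day 1 and 53.2% at day 5. Smurf1, a ubiquitin ligase that marks receptors and SMADs for degradation, rose in all 6, by 0.19 (NaJa-D), 0.22 (NaJa-F) and 0.32 (NaJa-G) at day 1 and by 0.31, 0.33 and 0.94 at day 5. Among all genes 5.08% were called higher in all 6. Nedd4l, another ubiquitin ligase, rose in NaJa-F (0.31 and 0.20) and NaJa-G (0.56 and 0.65) at both days. In NaJa-G, Tgif1, a repressor of SMAD transcription, fell by 1.05 and 0.50 log2 units, whereas it rose by 0.33 in NaJa-D at day 5. Ski, a relative of Skil, rose by 0.60 in NaJa-G at day 1.

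Of 15 further target genes (Il11 had no row), 9 rose and 1 fell in NaJa-D at day 1, and 9 rose and 0 fell at day 5. In NaJa-F 7 rose and 1 fell at day 1, and 7 rose and 0 fell at day 5. In NaJa-G 12 rose and 1 fell at day 1, and 11 rose and 2 fell at day 5, with list medians of 0.74 and 1.25. In the other lines the medians lay between 0.30 and 0.56. Among all genes 23.7% (NaJa-D), 17.5% (NaJa-F) and 35.3% (NaJa-G) were called higher at day 1 and 18.3%, 9.7% and 28.5% at day 5. The share called lower was 21.2%, 12% and 28.7% at day 1 and 14.7%, 8.5% and 24.7% at day 5. The genes that fell, named here after their values were seen, were Fn1 (NaJa-D day 1), Snai1 (NaJa-F day 1 and NaJa-G day 1) and Cdkn1a and Snai1 (NaJa-G day 5). Acta2, Ccn1, Ccn2, Col1a1 and Tgm2 were called higher in all 6 comparisons, as were 5.08% of all genes. Ccn2, a matricellular protein that also serves as a YAP target, rose by 1.17 (NaJa-D), 0.85 (NaJa-F) and 1.16 (NaJa-G) at day 1 and by 1.35, 1.22 and 2.61 at day 5. Col1a1, a chain of type I collagen, averaged 42.1 CPM in NaJa-G DMSO day 1 and 70.0 CPM in encorafenib, and 11 and 71.1 CPM at day 5, but no more than 3.73 CPM in any group of NaJa-D or NaJa-F. Acta2, smooth muscle actin, averaged 29.1 and 73.5 CPM in DMSO and encorafenib of NaJa-G at day 1 and 3.71 and 145 CPM at day 5. Acta2 stayed at or below 2.54 CPM in every group of the other lines, so its called rises there are between very low levels. Tgm2, a protein cross-linking enzyme, rose by 2.56 and 1.67 in NaJa-G and by 0.48 to 1.43 elsewhere.

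Col1a1 is also in the fibroblast marker list. The 4 measured genes of that list summed to 54.6 to 74.9 CPM in NaJa-G DMSO day 1, 89.3 to 105 CPM in encorafenib day 1, 14.8 to 17.4 CPM in DMSO day 5 and 102 to 118 CPM in encorafenib day 5. Lum, Dpt and Thy1 had no row. The mesenchymal genes Vim, Zeb1 and Cdh2 summed to 2183 to 3132 CPM in NaJa-G, 229 to 555 CPM in NaJa-F and 99.2 to 205 CPM in NaJa-D. In NaJa-D their sum was lower in encorafenib than in DMSO without overlap, at 99.2 to 134 against 189 to 205 CPM at day 1 and 109 to 119 against 140 to 162 CPM at day 5. In NaJa-F it was 383 to 414 against 485 to 555 CPM and 229 to 240 against 397 to 421 CPM. In NaJa-G the groups overlapped at day 1, and at day 5 the sum was 2183 to 2267 CPM in encorafenib against 2322 to 2605 CPM in DMSO. Where the sums did not overlap, they moved in the other direction than Acta2 and Col1a1. Most of the sum was Vim in NaJa-F and NaJa-G, with medians of 310 and 2305 CPM over the libraries of the line. Cdh2 had medians of 75.5 and 224 CPM there, and Zeb1 18.8 and 58.8 CPM. In NaJa-D the medians were 69.8 CPM for Vim, 68.9 CPM for Cdh2 and 1.32 CPM for Zeb1. The sums do not show whether each gene fell. In bulk RNA, fewer cells of a type and less RNA per cell cannot be told apart.

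Cdkn2b, a cell cycle inhibitor induced by TGFβ, rose by 1.66 in NaJa-G at day 1 and by 0.35 at day 5. It was also called higher in NaJa-D (0.66 and 0.56) and in NaJa-F at day 1 (0.68). Snai2, a transcription factor of the mesenchymal state, rose in NaJa-G by 1.24 and 1.92. In NaJa-D it rose at day 5 by 0.99, between averages of 0.688 and 1.38 CPM.

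**Figure D4:**
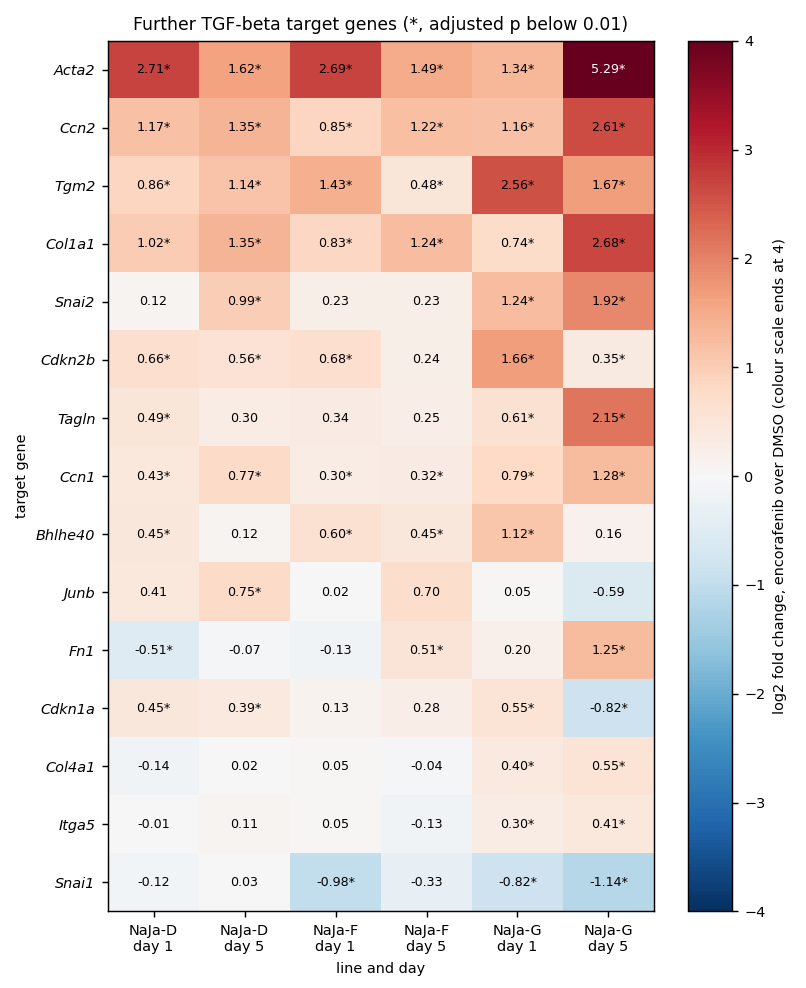
Log2 fold change, encorafenib over DMSO, of the 15 further target genes in the 6 comparisons of line and day, ordered by their mean. Asterisks mark an adjusted p below 0.01. Acta2, Ccn2, Tgm2, Col1a1 and Ccn1 are called higher in each column.

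Of 21 genes of the neighbouring BMP and activin branch (Bmpr1b had no row), 3 to 9 rose and 5 to 7 fell in each encorafenib comparison, with list medians from -0.17 to 0.15, where 18.2% to 64% of all genes were called. Inhba and Inhbb, which encode activin subunits, and Nog, which encodes the BMP antagonist noggin, rose in all 6, as did 5.08% of all genes. Inhba rose by 1.55 and 1.13 log2 units in NaJa-G and by 0.30 to 0.54 in the other lines. Nog rose by 0.78 (NaJa-D), 0.78 (NaJa-F) and 1.96 (NaJa-G) at day 1 and by 1.19, 1.58 and 2.18 at day 5. Inhbb did not exceed an average of 1.92 CPM in any group. Bmp2, a ligand of the BMP receptors, fell in NaJa-D by 1.06 and 0.70 and in NaJa-F by 0.58 and 0.64, and in NaJa-G by 0.61 at day 5. Bmp7, another BMP ligand, exceeded its NaJa-D level by 6.17 log2 units in NaJa-F in DMSO and fell with encorafenib in NaJa-F (-0.96 and -1.26). For Acvr1b, an activin receptor, the NaJa-G minus NaJa-D difference in DMSO was -2.74.

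The genes most like each member were sought by Pearson r across the 12 group means of log2 CPM among 10255 genes. The group means share lines and treatments and are not independent, so r is a description. Tgfb2 was most like Slc25a51 (r = 0.976) and Snx18 (r = 0.974). Tgfb3 was most like Decr1 (r = 0.985) and Mfap1b (r = 0.974). Tgfbr2 followed Tmco3 (r = 0.970) and Arhgef10 (r = 0.954), and Tgfbr1 followed Zfp292 (r = 0.970) and Gpam (r = 0.961). For Tgfbi they were Tspan5 (r = 0.949) and Ing3 (r = 0.924), and for Tgfb1 Ubxn1 (r = 0.962) and Sap30l (r = 0.951). The highest r of Smad3 was with Gm8399 (0.915) and Ide (0.887), of Smad7 with Mfsd5 (0.916) and Sema4b (0.913) and of Skil with Wdr60 (0.850) and Ggnbp2 (0.829). No member was among the closest genes of another.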

How the data were processed

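RNA of the 34 libraries was sequenced by the authors. Per the labels, the submitters' processing notes name Trimmomatic 0.39, STAR 2.5.2b and GRCm38 (mm10). The deposited table holds whole-number counts, not normalised. Which program counted them, on which gene annotation and whether by strand is not given in the sources used here. Symbols and exon lengths, with the exons of all transcripts of a gene merged, came from GENCODE M21 (14064 of 14107 identifiers matched).

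Tests used limma 3.58.1 in R 4.3.3, with voom weights and TMM factors (0.876 to 1.07) from edgeR 4.0.16. A mean for each of 12 groups was fitted to all libraries. Comparisons were encorafenib against DMSO per line and day, lines in DMSO over both days, days in DMSO, and differences of responses. Tests were two-sided, and genes were called at an adjusted p below 0.01 over all genes. The members, companion lists and comparisons were chosen with earlier results of these data known. Of companion lists, the text names genes called one way in all 6 encorafenib comparisons and up to 2 with the largest change per encorafenib or line comparison among genes averaging at least 2 log2 CPM. One gene of the target list is not reported here. The procedure was tested on simulated data. Alternatives were edgeR, DESeq2 1.42.0, RLE scaling, library size scaling, filterByExpr, a replicate block, fits of only the groups compared, a threshold of 0.05 and leaving out each library. Replicates of a group varied 3.39 to 112 times as much as counting noise alone would give, so no counting intervals are given.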

Additional observations from a re-analysis of the deposited data

Results flagged for a closer look

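The following responses to encorafenib differed between lines or between days by the test of the difference itself (limma with voom weights, adjusted p below 0.01 over all genes). Values are differences of log2 fold changes. No group had the 4 libraries needed to test for an outlying one.

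For Tgfb2 the day 1 response was larger than that of NaJa-D by 1.23 in NaJa-F and by 2.69 in NaJa-G, and NaJa-G exceeded NaJa-F by 1.46. At day 5 NaJa-G exceeded NaJa-D by 0.95 and NaJa-F by 1.52. Day 5 minus day 1 was -1.67 in NaJa-F and -1.61 in NaJa-G. For Tgfb3 the day 1 response was larger than in NaJa-D by 1.22 in NaJa-F and 1.56 in NaJa-G, and at day 5 NaJa-G exceeded NaJa-D by 0.84 and NaJa-F by 1.28. Day 5 minus day 1 was 0.74 in NaJa-D.

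For Tgfbr2 the NaJa-G response exceeded that of NaJa-D by 1.53 and that of NaJa-F by 1.3 at day 1, and by 1.17 and 1.07 at day 5. Day 5 minus day 1 was -0.39 in NaJa-G. For Smad3 the day 1 response of NaJa-G exceeded that of NaJa-D by 0.29, a call lost without NaJa-D encorafenib day 1 replicate 2 (0.25) and under library size scaling (0.15), and day 5 minus day 1 in NaJa-G was -0.26, a call lost when any of 9 of 11 libraries was left out. For Smad7 the day 1 response of NaJa-G exceeded that of NaJa-D by 0.24, a call lost when any of 6 of 12 libraries was left out and under library size scaling (0.10, adjusted p = 0.308 by limma), and that of NaJa-F by 0.41.

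For Tgfbi the day 1 response exceeded that of NaJa-D by 2.01 in NaJa-F and 2.53 in NaJa-G. NaJa-G exceeded NaJa-F by 0.52, a call lost without NaJa-F encorafenib day 1 replicate 3 (0.43), NaJa-G encorafenib day 1 replicate 2 (0.48) or NaJa-F DMSO day 1 replicate 1 (0.47). Day 5 minus day 1 was -1.28 in NaJa-F and -2.05 in NaJa-G.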

How the results depend on the processing

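Of 75 called member results, 57 kept their call and direction under all alternatives run on member values and in each fit without a library, 18 lost the call in at least 1 of them, and none changed sign. The called results of Tgfb2 were all among the 57. The filterByExpr filter left all 14107 genes. Scaling by library size moved the median of all genes to 0.18 log2 units for day 5 against day 1 in DMSO (NaJa-D), 0.14 and 0.13 for NaJa-F and NaJa-G against NaJa-D and 0.11 for encorafenib in NaJa-D at day 1, and turned the sign of 3 uncalled values, Tgfb1 (0.0771) and Smad3 (0.0301) in NaJa-D at day 1 and Skil in NaJa-G at day 1 (-0.0015). Tgfb1 in NaJa-D at day 1 was also positive by edgeR (0.0203) and DESeq2 (0.0113), and Skil in NaJa-G at day 1 was -7.8e-04 in a fit of only the groups compared. Calls lost under an alternative other than leaving out a library were those of Smad3 (encorafenib in NaJa-G at day 1 and both response differences), Smad7 (NaJa-F against NaJa-D with -0.05 under library size scaling, time in NaJa-F, and NaJa-G against NaJa-D responses), Tgfb3 (time in NaJa-G, day 5 minus day 1 in NaJa-D, NaJa-F against NaJa-D responses at day 1), Tgfbr1 (time in NaJa-F and NaJa-G, encorafenib in NaJa-G at day 5) and Tgfbr2 (time and day 5 minus day 1 in NaJa-G).

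Numbers of members called are given here with the number of all 14107 genes called in the same fit in brackets. For encorafenib in NaJa-D at day 1, 2 members (6335 genes) became 4 under library size scaling (6320) and 5 at an adjusted p below 0.05 (8009). For day 5 against day 1 in DMSO, NaJa-D, 0 members (4090 genes) became 1 by DESeq2 (4638), under library size scaling (5063) and at 0.05 (5884). In NaJa-G 5 members (4804 genes) became 2 with only the groups compared (1182). NaJa-F against NaJa-D in DMSO gave 5 (8685 genes), and 8 at 0.05 (9865). The response difference of NaJa-F and NaJa-D at day 5 gave 0 (1248 genes), and 1 by DESeq2 (1476), 1 with only the groups compared (1131) and 3 at 0.05 (2207). That of NaJa-G and NaJa-D at day 5 gave 3 (3089), and 5 at 0.05 (4642). The difference between days gave 4 in NaJa-G (4473 genes) and 2 under RLE scaling (4359), and 1 in NaJa-D (1029) and 0 with only the groups compared (261). Fits of only the groups compared hold fewer samples. For the other alternatives the cause was not tested.

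Without 1 library each, the number called ranged from 2 to 4 for encorafenib in NaJa-D at day 1 (4 without NaJa-D DMSO day 1 replicate 1). It ranged from 0 to 1 for time in DMSO in NaJa-D (1 without the same library), from 2 to 4 for time in DMSO in NaJa-F (2 without NaJa-F DMSO day 5 replicate 1 or NaJa-F DMSO day 1 replicate 3), from 2 to 5 for NaJa-F against NaJa-D responses at day 1 (5 without NaJa-D encorafenib day 1 replicate 3), from 0 to 1 for the same at day 5 (1 without NaJa-D DMSO day 5 replicate 3) and from 2 to 4 for the difference between days in NaJa-G (2 without any encorafenib day 5 library, DMSO day 1 replicate 2 or 3, or encorafenib day 1 replicate 1 or 3). Uncalled values that changed sign without a library ranged from -0.20 to 0.10 (Tgfb1, NaJa-D day 1), -0.0717 to 0.11 (Tgfb1, NaJa-F day 1), -0.15 to 0.50 (Tgfb1, NaJa-F day 5), -0.0379 to 0.15 (Tgfbr1, NaJa-F day 5), -0.0616 to 0.0160 (Smad3, NaJa-D day 5), -0.10 to 0.11 (Skil, NaJa-F day 5) and -0.27 to 0.0367 (Skil, NaJa-G day 5). Where a group kept 1 library, it was assumed to vary like the other groups. The numbers of all genes called without a library are not given here, so these counts stand without that background.

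With the replicate number as a block, the number of members called was the same in 17 of 21 comparisons and stayed within 1.5 times in the other 4. Deviations of libraries with the same number were weakly correlated (3 of 16 pairs had a correlation above 0.1, range -0.16 to 0.21). With 2 or 3 libraries per group this cannot decide whether the numbers pair the samples, and the main fit held no pairing. At these depths the lowest count of a member was 26 (Tgfb3 in NaJa-F), and that gene had the widest errors in NaJa-F.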
